A study of Mus musculus with 18 samples.

Results

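The lysosomal cathepsins are the proteases Ctsa, Ctsb, Ctsc, Ctsd, Ctse, Ctsh, Ctsl, Ctss and Ctsz. They were taken by gene symbol, and all 9 were listed among the 14423 genes of the authors' deposited table for bone marrow and the 21830 genes of that for spleen. The neutrophil granule protease Ctsg is not among them. RNA came from cells dissociated from C57BL/6 mice and was read by QuantSeq, which sequences only the 3' end of a polyadenylated transcript. Bone marrow was compared between 4 libraries of Cgas-/- mice, which lack the DNA sensor cGAS, and 4 of Trex1-/-;Sting1gt/gt mice, called dKO, which lack the DNA exonuclease TREX1 and carry the goldenticket allele of Sting1 that leaves no functional STING. Spleen was compared between 5 dKO recipients of Cgas-/- marrow and 5 dKO recipients of dKO marrow, 12 weeks after lethal irradiation and transplantation. Host cells that survived irradiation were dKO in both spleen groups. No wild-type group was used here, so each comparison is between mutant genotypes. The labels give no age, and do not tie each library to a mouse of its own. The p-values therefore speak only to the spread among these libraries, part of which may be technical.

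Cathepsins are made as inactive precursors, carried to the lysosome mostly by mannose 6-phosphate receptors, and activated there at acid pH. Most are cysteine proteases (Ctsb, Ctsc, Ctsh, Ctsl, Ctss and Ctsz), Ctsd and Ctse are aspartic proteases and Ctsa is a serine carboxypeptidase. In blood-forming tissue and spleen they are known for protein turnover in macrophages and monocytes, for trimming antigens and the invariant chain of MHC class II in antigen-presenting cells, and for activating the serine proteases of granules. Their cysteine members are held in check by cystatins and stefins, and many lysosomal genes are driven by the MiT/TFE transcription factors.

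Each fold change has dKO (in spleen, recipients of dKO marrow) as its base, and the standard error follows ±. They are the authors' DESeq2 estimates, and a call is a DESeq2 adjusted p under 0.05 in the authors' deposited tables. Means over the libraries of a comparison, fold changes and tests were used, and no values per library were used here. The depth per library is therefore unknown. The targeted genes went the way of the labels in both tables: Trex1 was 2.73-fold higher in Cgas-/- marrow and 6.55-fold higher in spleens with Cgas-/- marrow, and Cgas (Mb21d1 in the spleen table) was 2.18-fold and 1.89-fold lower, each called in the authors' deposited tables.

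Cathepsin transcripts were at middle to high levels in both tissues. For bone marrow, the authors' deposited table gave a mean normalized count, the count after division by each library's size factor, of 294.9 for Ctsl up to 3064 for Ctss, and the 9 genes held 0.130% of the summed means. In that for spleen it ran from 88.5 for Ctse to 5240 for Ctss, and the share was 0.269%. A 3' tag count does not scale with transcript length, so the order of these levels was read within each table. Ctss, an endopeptidase that works on the invariant chain, was the highest in both. In bone marrow, Ctsd (2531) and Ctsb (2269) followed, and in spleen Ctsc (1426) and Ctsh (1422), by the means of the authors' deposited tables. All 9 had a mean of at least 20 in both tables.

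In bone marrow, Ctsh was lower in Cgas-/- cells and was the 1 cathepsin called. Ctss and Ctsc had estimates nearly as low that did not pass, and Ctsl and Ctse had estimates above 0 that did not pass either. Of the 9 members, 7 were below 0 on the log2 scale and their median was -0.11, against a median of -0.01 over the 4501 genes with a mean at least that of Ctsl, of which 53.6% were below 0. A call was made for 0.534% of all genes of the table, and for 0.889% of those 4501. At an unadjusted p under 0.05, 3 members were lower and 0 higher in the authors' deposited table, where 4.65% of all genes and 8.26% of those 4501 were lower and 4.19% of all genes higher. The 9 estimates come from the same libraries and are not independent of each other.

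Among the aminopeptidase and carboxypeptidase members, Ctsh, an aminopeptidase, had a mean of 1698 and fell by 0.33 ± 0.0875 on the log2 scale (DESeq2 adjusted p = 0.0397, authors' deposited table). That is 20.2% lower, with a 95% interval of -29.2% to -10.2%. Ctsc, the dipeptidyl peptidase that activates granule serine proteases, had a mean of 928.2 and -0.27 ± 0.134 by the authors' deposited table (adjusted p by DESeq2 = 0.541). Ctsc thus had an estimate close to that of Ctsh with a wider error, and its 95% interval of -30.9% to -0.412% nearly reached 0. Ctsz, a carboxypeptidase, had a mean of 758.3 and -0.10 ± 0.0959 by the authors' deposited table (adjusted p by DESeq2 = 0.880). Ctsb, which cuts as a carboxypeptidase and as an endopeptidase, had -0.11 ± 0.0874 by the authors' deposited table (adjusted p by DESeq2 = 0.839). The serine carboxypeptidase Ctsa, which also shields the sialidase Neu1 and the galactosidase Glb1 from breakdown, had a mean of 597.9 and -0.03 ± 0.120 by the authors' deposited table (adjusted p by DESeq2 = 0.992). For Ctsz, Ctsb and Ctsa the 95% interval held 0, with lower ends of -18.1%, -17.6% and -16.7%.

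Among the endopeptidases, Ctss had -0.26 ± 0.0980 in bone marrow by the authors' deposited table (adjusted p by DESeq2 = 0.287), a value 16.6% lower with a 95% interval of -27.0% to -4.71%. Ctsd, the main aspartic protease of the lysosome, had -0.17 ± 0.0956 by the authors' deposited table (adjusted p by DESeq2 = 0.644). Ctsl, a cysteine endopeptidase active in many tissues, had 0.23 ± 0.140 by the authors' deposited table (adjusted p by DESeq2 = 0.707). Ctse, an aspartic protease of endosomes that is also known from red cell membranes, had a mean of 515.8 and 0.18 ± 0.159 by the authors' deposited table (adjusted p by DESeq2 = 0.863). Ctsl and Ctse were the 2 members with estimates above 0, and the 95% intervals of both held 0, from -3.12% to 41.7% for Ctsl and from -8.59% to 41.0% for Ctse.

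The precision of the table sets what could be called. The smallest absolute Wald statistic, the log2 fold change over its standard error, among called genes was 3.65 in the authors' deposited bone marrow table, which for these 9 genes corresponds to a log2 change of 0.32 (Ctsb) to 0.58 (Ctse). The call on Ctsh stands close to that limit: it ranked 70 by p among the 77 called genes. With a t distribution in place of the normal for the Wald statistic, Ctsh was not called (adjusted p = 0.986), and 1 gene of the whole table was. The targeted gene Cgas, which ranked 8 by p, was not called under it either. That setting therefore cannot decide on the call of Ctsh.

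**Figure D1:**
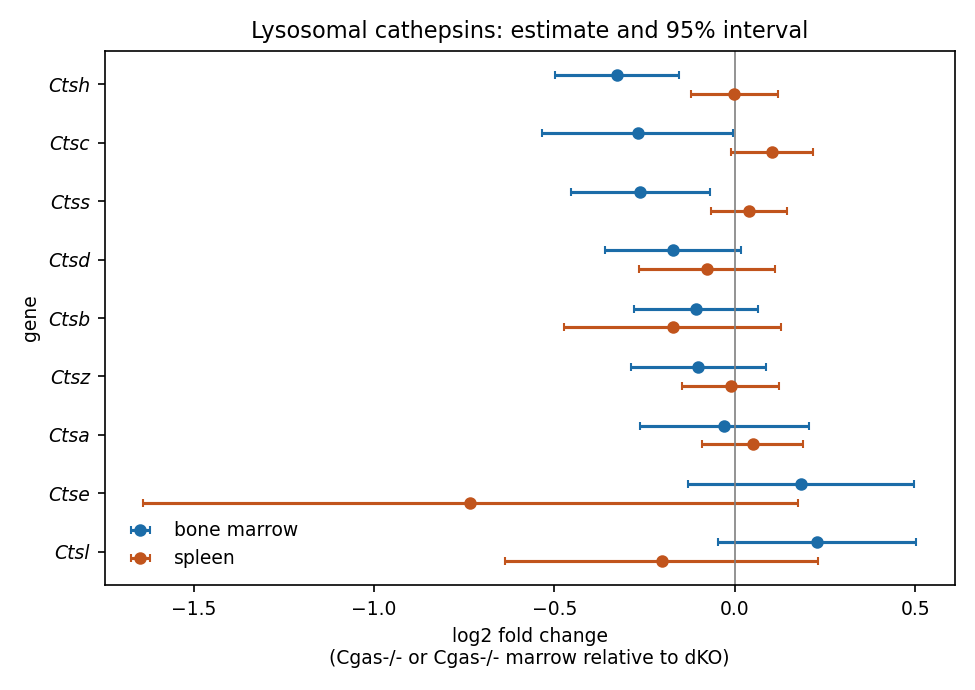
Log2 fold change (horizontal axis) of each lysosomal cathepsin (vertical axis) in bone marrow (blue) and spleen (orange), points being the authors' DESeq2 estimates and bars 95% intervals of 1.96 standard errors. In bone marrow the interval of Ctsh lies furthest from 0, from -0.50 to -0.15, and in spleen all 9 intervals hold 0.

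**Figure D2:**
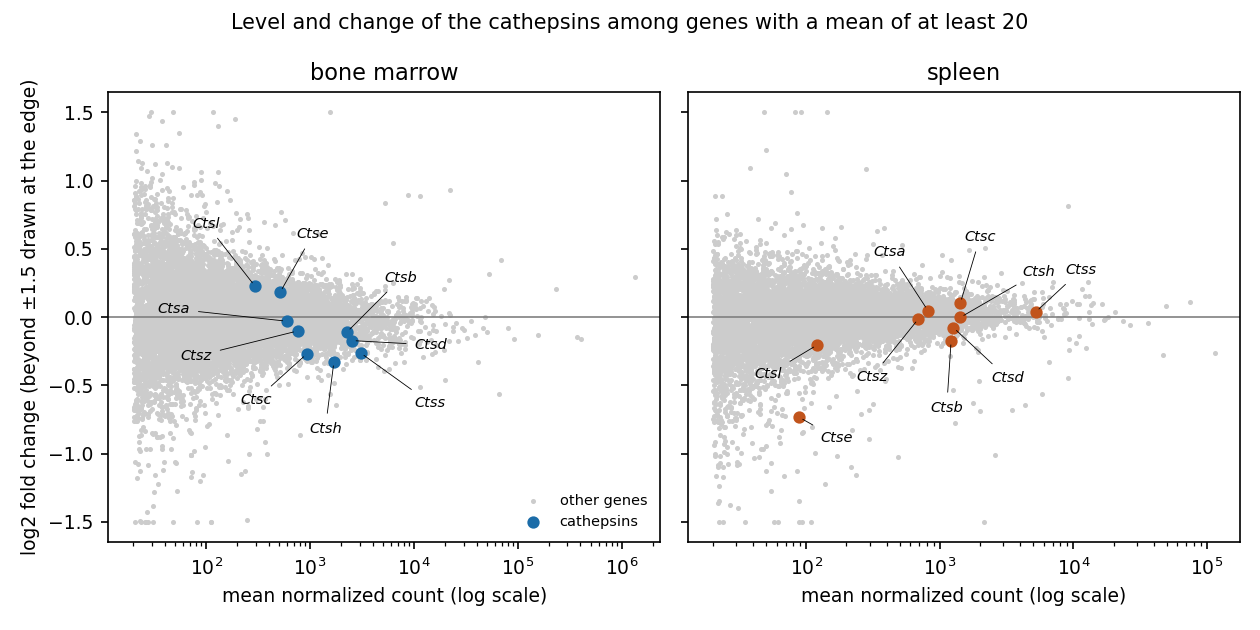
Mean normalized count (horizontal axis, log scale) against log2 fold change (vertical axis) for genes with a mean of at least 20 in each tissue, grey for other genes and coloured for the 9 cathepsins. The cathepsins sit at middle to high levels, and Ctss, at 3064 and 5240, is the one furthest to the right in both panels.

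Ctsh lies on chromosome 9, the chromosome of both targeted genes, at 90054152 to 90076089 on the plus strand (GRCm38, GENCODE M21). Its start is 11.6 Mb from that of Cgas and 19.0 Mb from that of Trex1. The groups differ by mutant alleles on both sides of Ctsh, so a difference inherited with these alleles and a response of the gene cannot be told apart by this design. Within 5 Mb of Ctsh, none of the 23 other genes with a mean of at least 20 in bone marrow was called, and 1 was lower and 1 higher at an unadjusted p under 0.05 in the authors' deposited table. Of all genes, 0.534% were called, and 4.65% were lower and 4.19% higher at that unadjusted p. At such shares 23 genes are too few for a count of 0 calls to describe the region. The median log2 fold change of these neighbours was -0.07, with 15 of 23 below 0. Of the 16 called genes of chromosome 9 with a mean of at least 20, Ctsh included, the nearest to it was Cgas itself. In spleen, none of the 21 other genes within 5 Mb of Ctsh was called, where 0.133% of all genes were, and the median of the 21 was 0.04.

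**Figure D3:**
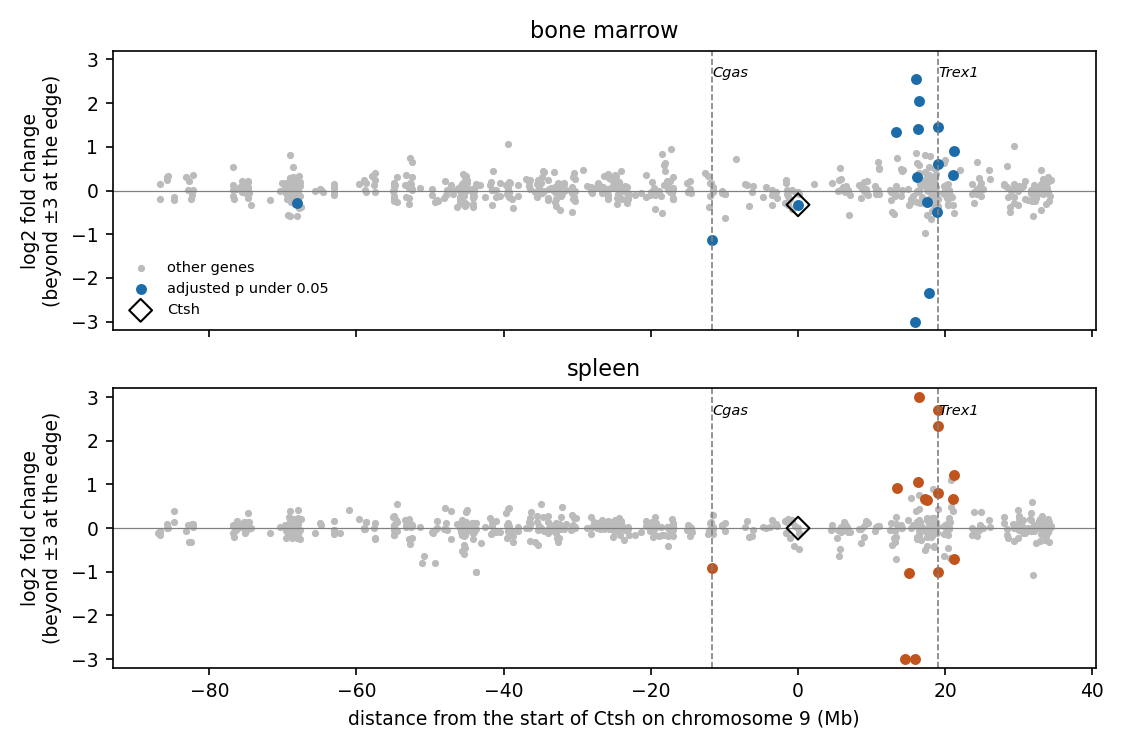
Log2 fold change (vertical axis, values beyond ±3 drawn at the edge) of chromosome 9 genes with a mean of at least 20 against their distance from the start of Ctsh (horizontal axis, Mb), with called genes coloured and Ctsh as a diamond. In bone marrow Ctsh is the 1 called gene between Cgas, 11.6 Mb to one side, and the called genes around Trex1, 19.0 Mb to the other, and in spleen Ctsh lies at 0.00.

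The other members lie on 6 other chromosomes of GRCm38. Ctse is on chromosome 1 at 131638306 to 131675505 and Ctss on chromosome 3 at 95526786 to 95556403, both on the plus strand. Ctsa (164832873 to 164841032, plus strand) and Ctsz (174427493 to 174439039, minus strand) are on chromosome 2. Ctsc (88278085 to 88310888, plus strand) and Ctsd (142375911 to 142388038, minus strand) are on chromosome 7. Ctsl is on chromosome 13 at 64359337 to 64370890 on the minus strand and Ctsb on chromosome 14 at 63122462 to 63145923 on the plus strand. Ctsh and Ctse overlapped no other annotated gene. Ctsl, Ctss and Ctsd overlap an annotated gene on the same strand (Gm49230, Hmgb1-ps5 and Gm49369), and Ctsa, Ctsb, Ctsc, Ctsl and Ctsz one or more on the other strand. The strand used in counting is stated nowhere in the sources used here, so reads of such pairs may not have been separated.

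In spleen, no cathepsin passed the test between recipients of Cgas-/- and of dKO marrow. In the authors' deposited table none of the 9 members was called, where 0.133% of all genes were. The count at an unadjusted p under 0.05 was also 0, where 3.02% of all genes passed. The median log2 fold change of the 9 was -0.01, with 6 below 0, against 0.02 over the 7296 genes with a mean at least that of Ctse, of which 43.5% were below 0. The estimates of Ctss, Ctsh and Ctsz had small errors. Ctss was at 0.04 ± 0.0540, Ctsh at -0.00 ± 0.0615 and Ctsz at -0.01 ± 0.0690 in the authors' deposited table, where all 9 members had an adjusted p of 0.999997 by DESeq2. The 95% intervals were -4.52% to 10.6% for Ctss, -8.12% to 8.58% for Ctsh and -9.67% to 8.96% for Ctsz, so a change of the size Ctsh had in bone marrow lay outside the interval for Ctsh in spleen. Ctsa had 0.05 ± 0.0710 and Ctsd -0.08 ± 0.0958 in the authors' deposited table. Ctsc had the smallest unadjusted p of the 9, 0.0733, at 0.10 ± 0.0575 in the authors' deposited table by DESeq2.

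The errors of Ctse, Ctsl and Ctsb were the largest of the 9 in spleen. Ctse, with a mean of 88.5, had -0.73 ± 0.463 by the authors' deposited table (not called), with a 95% interval of -67.9% to 12.8%. Ctsl, with a mean of 121.0, had -0.20 ± 0.221, and Ctsb, with a mean of 1217, had -0.17 ± 0.153 in the authors' deposited table, while Ctsd had a smaller error at a like mean of 1265. For a call in this table, with a smallest absolute Wald statistic of 4.10 among called genes, the log2 change would have had to reach 0.22 for Ctss and 1.89 for Ctse.

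The difference between the comparisons was tested directly, by subtracting the log2 fold change in bone marrow from that in spleen, for the 13776 genes listed under 1 symbol in both tables. Across all genes, 8 (0.0581%) passed an adjusted p of 0.05 by this two-sided normal test, and no cathepsin did. At an unadjusted p under 0.05, 3 members differed, where 4.8% of all genes did. These were Ctsh (difference 0.32, 95% interval 0.11 to 0.53, adjusted p = 0.562 from the DESeq2 estimates), Ctss (0.30, 0.08 to 0.52, adjusted p = 0.775 from the DESeq2 estimates) and Ctsc (0.37, 0.09 to 0.66, adjusted p = 0.878 from the DESeq2 estimates). These 3 are the members that were lowest in bone marrow, where the same values enter the difference. Ctse had a difference of -0.92 (95% interval -1.87 to 0.04) and Ctsl of -0.43 (-0.94 to 0.08), the opposite sign. The comparisons share no library, and they differ in tissue, in irradiation and in the host's genotype, so a difference between them cannot be laid to the tissue.

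The promoters of the members differ in the motifs they hold, and the stretches with a match are shown here as a description only. RefSeq promoters (GRCm38.p6, 250 bases before to 50 after a start) were matched by symbol for 6 of the 9 members, Ctsa with 2 starts, and not for Ctsb, Ctse and Ctsh. Motifs were searched as exact letters on both strands: CACGTG, the E-box at the core of the CLEAR element that MiT/TFE factors bind, that element as its full palindrome, which holds the first motif, the interferon-stimulated response element (GAAA, any pair of bases, GAAA), and GAGGAAGT, a core of PU.1, the myeloid and B cell factor. Capitals mark the matches, which on the other strand read as the reverse complement.
Ctss: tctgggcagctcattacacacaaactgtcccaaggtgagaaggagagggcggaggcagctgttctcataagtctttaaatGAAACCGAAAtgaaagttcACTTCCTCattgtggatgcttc
Ctsc: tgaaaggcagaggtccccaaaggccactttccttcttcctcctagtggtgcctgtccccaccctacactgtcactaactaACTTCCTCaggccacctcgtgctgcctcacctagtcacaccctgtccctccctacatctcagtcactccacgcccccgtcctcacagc
Ctsd: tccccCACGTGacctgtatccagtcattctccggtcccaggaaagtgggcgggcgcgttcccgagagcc
Ctsd: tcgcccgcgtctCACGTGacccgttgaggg
Ctsl: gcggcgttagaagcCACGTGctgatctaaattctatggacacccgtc
Ctsa: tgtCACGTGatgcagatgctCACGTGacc

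The Ctss stretch (chr3:95526685-95526805, plus strand) holds the interferon-stimulated response element from 21 bases before the start and, from 2 bases before it, GAGGAAGT on the other strand. The Ctsc stretch (chr7:88277854-88278021, plus strand) holds GAGGAAGT on the other strand from 151 bases before the start. CACGTG was found in 3 members. In Ctsd it lies 245 and 98 bases before the RefSeq start (chr7:142388009-142388077, minus strand, and chr7:142387908-142387937), in Ctsl 236 before (chr13:64370724-64370770, minus strand), and in Ctsa at the second start 12 before and 5 after (chr2:164833758-164833786, plus strand). These 3 RefSeq starts lie inside the genes as bounded by GENCODE M21. Annotated exons held 30 of the 69 and 30 of the 30 bases of the Ctsd stretches. They held 30 of 47 for Ctsl and 29 of 29 for Ctsa. Such stretches are thus partly or wholly annotated as transcribed. Over all 32851 RefSeq promoters of this length, 7.15% held CACGTG, 3.44% the interferon-stimulated response element, 3.2% GAGGAAGT and 0.326% the full CLEAR palindrome, which no member held. Counted by gene, as the members are, the shares were 8.09% for CACGTG, 3.99% for the interferon-stimulated response element and 3.69% for GAGGAAGT. The promoter of Ctsz held none of these motifs. In bone marrow the log2 fold changes of the 6 matched members, none of them called, were -0.26 for Ctss, -0.27 for Ctsc, -0.17 for Ctsd, -0.03 for Ctsa, 0.23 for Ctsl and -0.10 for Ctsz in the authors' deposited table. In spleen, where none was called either, they were 0.04, 0.10, -0.08, 0.05, -0.20 and -0.01 in the same order by the authors' deposited table. A match is a description of the letters in this window, and whether any factor binds there was not measured.

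Other genes of the lysosome were compared by lists. None of their genes was called in either tissue in the authors' deposited tables, where 0.534% of all genes were in bone marrow and 0.133% in spleen. Of 37 other lysosomal hydrolases and activators, 24 were below 0 in bone marrow (median -0.07), with 5 lower and 2 higher at an unadjusted p under 0.05. Of all genes there, 4.65% were lower and 4.19% higher at that threshold. Of the 4501 genes with a mean at least that of Ctsl, 8.26% were lower at it and 53.6% were below 0. Psap, the precursor of the saposins that activate sphingolipid hydrolases, had -0.29 ± 0.0859 in the authors' deposited table and came nearest to a call (DESeq2 adjusted p = 0.0907). Man2b1, the lysosomal alpha-mannosidase, had -0.20 ± 0.0868 by the authors' deposited table (adjusted p by DESeq2 = 0.398). In spleen the same list had a median of -0.01, 21 of 37 below 0, with Gaa, the acid alpha-glucosidase, at -0.39 ± 0.149 and Man2b1 at -0.19 ± 0.114 in the authors' deposited table.

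The lysosomal membrane and the proton pump had like medians in bone marrow. Of 22 genes listed for the membrane 18 were below 0 (median -0.09) and of 17 vacuolar ATPase subunits 13 (median -0.08). Each list had 3 lower and 0 higher at an unadjusted p under 0.05, where 4.65% of all genes were lower and 4.19% higher. Of the 4501 genes with a mean at least that of Ctsl, 8.26% were lower at that threshold and 53.6% were below 0. Slc15a3, a lysosomal peptide and histidine transporter, had -0.39 ± 0.145 and the membrane protein Laptm4a -0.16 ± 0.0764 in the authors' deposited table. Atp6v1b2 and Atp6v1d, subunits of the part of the pump that splits ATP, had -0.21 ± 0.0787 and -0.19 ± 0.0795 in the authors' deposited table. In spleen the medians were -0.01 and 0.01. Lamtor2, of the Ragulator complex, had 0.45 ± 0.172 and Npc2, a soluble cholesterol carrier counted in the membrane list, 0.14 ± 0.0699 in spleen. The pump subunits Atp6v0b and Atp6v1a had -0.14 ± 0.0999 and -0.10 ± 0.0776 there, all in the authors' deposited table. The partners of Ctsa in its multienzyme complex, Neu1, Glb1 and Galns, were all below 0 in both tissues, with medians of -0.15 and -0.10. None of them was called, where 0.534% of all genes were in bone marrow and 0.133% in spleen. In bone marrow Galns had -0.25 ± 0.164 and Neu1 -0.15 ± 0.107, and in spleen Glb1 had -0.18 ± 0.127 and Neu1 -0.10 ± 0.0998, by the authors' deposited tables.

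The genes that make, sort, inhibit and regulate cathepsins gave no call either. Of 15 processing and sorting genes, 8 were below 0 in bone marrow (median -0.05) and 7 in spleen (median 0.00). In the authors' deposited tables Nagpa, which uncovers the mannose 6-phosphate tag, had -0.46 ± 0.159 for bone marrow and 0.15 ± 0.0988 for spleen. The sorting receptor Sorl1 had -0.17 ± 0.0883 in bone marrow, and the mannose 6-phosphate receptor M6pr 0.13 ± 0.0905 in spleen, by the authors' deposited tables. Of 7 listed cystatins and stefins, 6 were below 0 in bone marrow (median -0.24), and Stfa3, a stefin, had -0.64 ± 0.213 by the authors' deposited table (adjusted p by DESeq2 = 0.180). The next was Stfa1 at -0.27 ± 0.162 in the authors' deposited table. The Stfa genes are near-identical copies, so reads could be split between them and their single values are uncertain. In spleen that list had 3 of 7 below 0 and a median of 0.07, with Cstb (stefin B) at 0.10 ± 0.0848 and BC100530, on a mean of 1.24, at 2.02 ± 1.54 in the authors' deposited table. The MiT/TFE genes Tfeb, Tfe3, Tfec and Mitf had 2 of 4 below 0 in each tissue, with Mitf at -0.37 ± 0.259 and Tfeb at 0.25 ± 0.189 by the authors' deposited values in bone marrow. The authors' deposited table for spleen gave -0.49 ± 0.321 for Mitf and -0.05 ± 0.122 for Tfeb.

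The cathepsin genes outside the 9 gave no call. In bone marrow 5 were listed and 4 were below 0 (median -0.14), with Ctso, a widely expressed cysteine cathepsin, at -0.19 ± 0.213 and Ctsk, the osteoclast collagenase next to Ctss in the genome, at -0.43 ± 0.666 on a mean of 7.25 in the authors' deposited table. In spleen 7 were listed and 6 were below 0 (median -0.09), with Ctso at -0.09 ± 0.101 and Cts8, on a mean of 2.31, at -1.0 ± 1.11 in the authors' deposited table. Granule serine proteases that Ctsc activates had a median of -0.05 in bone marrow (5 listed) and -0.23 in spleen (6 listed). In the authors' deposited tables Elane, neutrophil elastase, had -0.09 ± 0.107 for bone marrow and, on a mean of 20.7, -0.91 ± 0.453 for spleen, and was called in neither. The others with the smallest p were Gzmb (granzyme B) at 0.99 ± 0.740 in bone marrow, on a mean of 7.99, and Prtn3 (proteinase 3) at -0.70 ± 0.551 in spleen, by the authors' deposited tables.

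**Figure D4:**
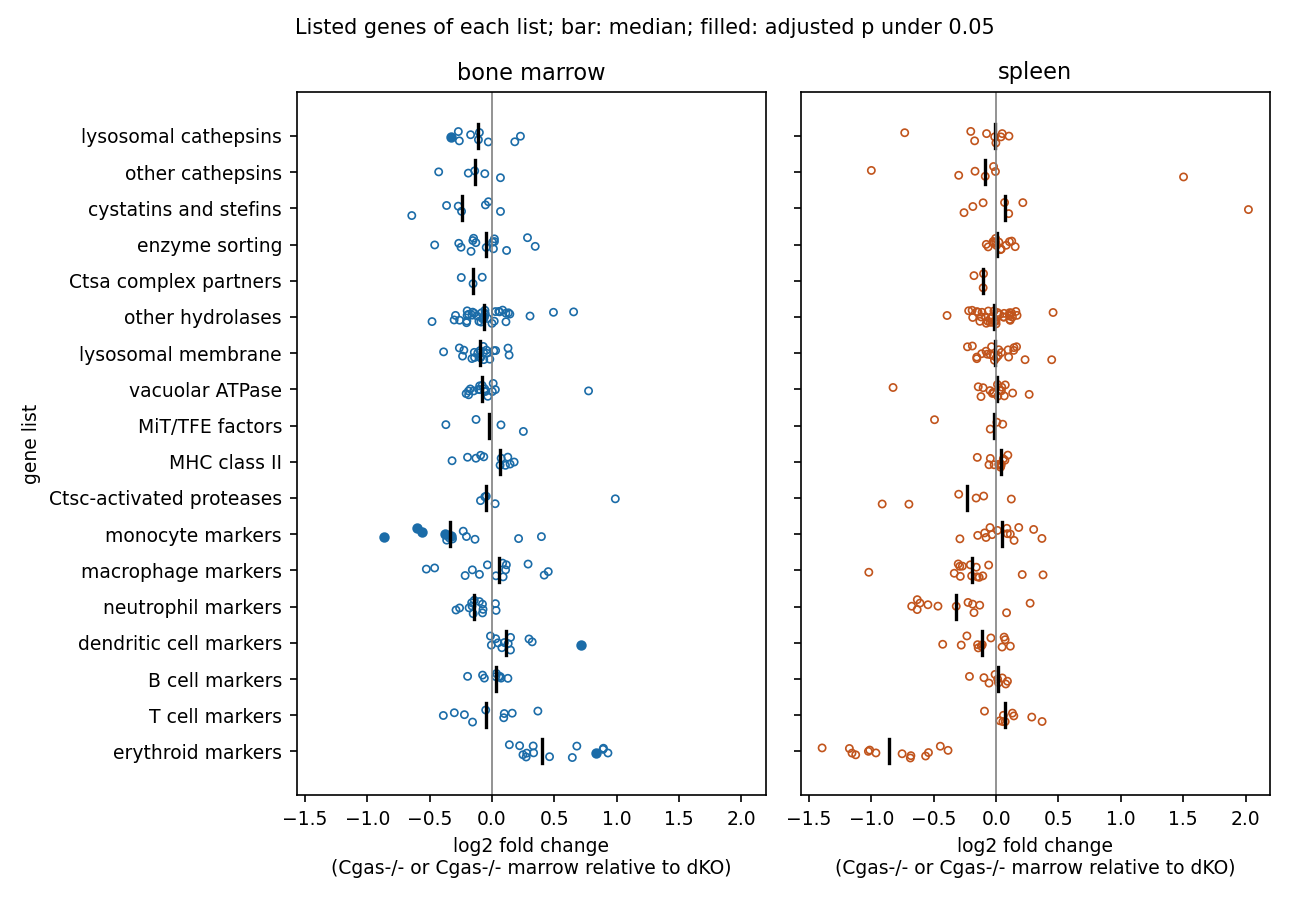
Log2 fold change (horizontal axis) of every listed gene of each list (rows) in bone marrow and spleen, with the median as a bar and called genes filled. The filled points in bone marrow are Ctsh, 5 monocyte markers, Flt3 and Hbb-bt, and no point is filled in spleen.

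Of 14 markers of classical monocytes, which carry cathepsins, 5 were called lower in the bone marrow comparison. There, 0.534% of all genes were called in either direction. The lists were chosen with earlier results of these data known, so these calls are not an independent result about monocytes. In bulk RNA, fewer cells of a type and less RNA per cell cannot be told apart. In bone marrow, 12 of 14 classical monocyte markers were below 0, from -0.87 to 0.40 with a median of -0.34. The 5 called, all lower in Cgas-/- cells, were Lyz2 (lysozyme, -0.56 ± 0.0892), Ly6c2 (-0.33 ± 0.0794), Csf1r (the M-CSF receptor, -0.37 ± 0.0988), Ms4a4c (-0.60 ± 0.150) and Ifi27l2a (-0.87 ± 0.231) in the authors' deposited table, of which the last 2 are also interferon-induced. The 9 cathepsins ran from -0.33 (Ctsh) to 0.23 (Ctsl) in the authors' deposited table. The range of the monocyte list is too wide to set them apart from other genes. Ctsl and Ctse had the opposite sign to the median of that list. Of 13 neutrophil markers 11 were below 0 (median -0.14) and 0 were called, and of 14 listed macrophage markers 6 were below 0 (median 0.06) and 0 were called. The lowest p among these were those of Ly6g (-0.29 ± 0.105) and Csf3r (-0.26 ± 0.113), of neutrophils, and Adgre1 (-0.46 ± 0.171) and Mrc1 (0.42 ± 0.238), of macrophages, in the authors' deposited table. In spleen the monocyte list had 6 of 14 below 0 (median 0.05), the neutrophil list 11 of 13 (median -0.32) and the macrophage list 13 of 15 (median -0.20). In that tissue 0 genes of these lists were called, where 0.133% of all genes were. There the lowest p were those of Lcn2 (-0.63 ± 0.50) and Ltf (-0.68 ± 0.560), of neutrophil granules, and Marco (-1.02 ± 0.605) and Mertk (-0.29 ± 0.278), of macrophages, in the authors' deposited table. The part of these cells in the cathepsin values was not tested.

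The signs of Ctse, above 0 in bone marrow and below 0 in spleen, were those of several marker lists, and its 95% interval held 0 in both tissues. The medians of the macrophage list (0.06 and -0.20) and of the dendritic cell list (0.11 and -0.11) had this pair of signs, as had the erythroid list. All 14 listed erythroid markers were above 0 in bone marrow, from 0.14 to 0.93 with a median of 0.40, and all 14 below 0 in spleen, from -1.39 to -0.39 with a median of -0.86. The authors' deposited tables put Ctse at 0.18 for bone marrow and -0.73 for spleen, with errors of 0.159 and 0.463, and Ctsl, at 0.23 and -0.20, had the same pair of signs. Hbb-bt, an adult beta-globin gene with near-identical copies, was the 1 erythroid call, at 0.84 ± 0.223 in bone marrow (authors' deposited table, DESeq2 adjusted p = 0.0370). Calls were made for 0.534% of all genes in bone marrow and 0.133% in spleen. None of the listed markers was at 0, and Ahsp was listed in neither table. The part of any of these cells in the Ctse value was not tested.

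**Figure D5:**
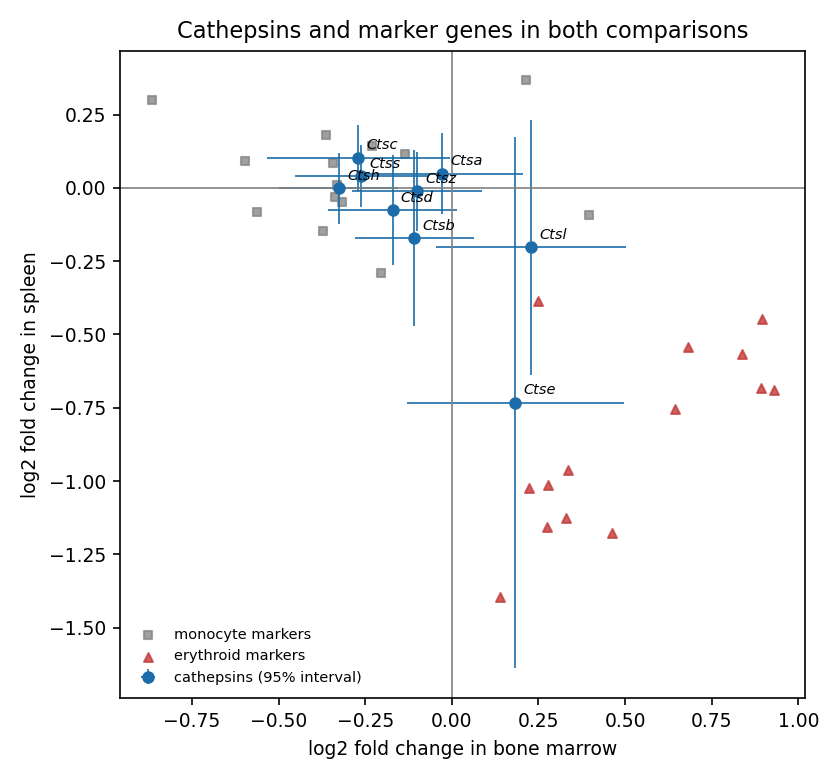
Log2 fold change in bone marrow (horizontal axis) against that in spleen (vertical axis) for the 9 cathepsins with 95% intervals, the monocyte markers (squares) and the erythroid markers (triangles). Ctse (0.18 and -0.73) and Ctsl (0.23 and -0.20) lie above 0 in bone marrow and below 0 in spleen, as do the 14 erythroid markers, and the intervals of both hold 0 in both tissues.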

How the data were processed

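QuantSeq forward 3' libraries were made from 8 bone marrow and 10 spleen RNA samples, per the labels' protocols. Tools named in the submitters' processing notes are DESeq2, Partek, STAR 2.6.1 and bcl2fastq 1.8.4, with the build mm10. Counting tool, strand, annotation and gene filter: not given in the sources used here. Each deposited mean normalized count is a signal the authors averaged over libraries. The log2 fold change with its standard error, the Wald score and the p-values are the authors' DESeq2 output, per the file headers, and a deposited ranking score was not used. The deposited Wald scores, p-values and Benjamini-Hochberg values were checked by recomputing them. Computed here were 95% intervals (normal), list counts and medians, and the difference between tables. The test of that difference was run on simulated normal fold changes with 200 genes changed. These were drawn with the deposited standard errors, so the simulation cannot check those errors. The members and lists were chosen with earlier results of these data known. Named are all 9 members, the targeted genes and, of each other list, called genes or otherwise the 2 with the smallest p in each table, except 1 gene that is not reported here. Positions are from GENCODE M21 (GRCm38, the assembly of mm10). Python 3.11.15, pandas 2.3.3, numpy 2.4.6, scipy 1.17.1 and matplotlib 3.10.9 were used.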

Additional observations from a re-analysis of the deposited data

How the results depend on the processing

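The alternatives were a t distribution for the Wald statistic, adjustment over genes with a mean of at least 20, centring on the median gene, and a threshold of 0.1. With the t distribution (6 degrees of freedom in bone marrow), whose tails are heavier by construction, 0 cathepsins were called in bone marrow in place of 1, and over all genes the calls went from 77 to 1 in bone marrow and from 29 to 11 in spleen. The targeted gene Cgas was among the bone marrow calls lost with the t distribution. The threshold of 0.1 gave 124 calls in bone marrow and kept Ctsh as the 1 cathepsin, as did the other 2. No cathepsin was called in spleen or in the difference between tables under any of the 4. The median of the 9 in bone marrow lay between -0.14 and -0.10 with each member left out in turn. Their mean weighted by the inverse squared standard error was -0.14. In spleen, leaving out members gave medians of -0.04 to -0.01, and the weighted mean was 0.02, the opposite sign to the median. No paired analysis was possible because the tables used hold no values per library, and for the same reason no library was left out in turn. Of the 9, Ctse and Ctsl had the lowest means and the widest errors in spleen; the depth behind them is unknown.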

Other observations

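Genes of MHC class II presentation, which Ctss serves by trimming the invariant chain, had no call in either tissue. Calls were made for 0.534% of all genes in bone marrow and 0.133% in spleen. Of 11 such genes, 5 were below 0 in bone marrow (median 0.07) and 4 in spleen (median 0.04). Ifi30, a lysosomal thiol reductase that is interferon-induced, had -0.32 ± 0.112 in bone marrow by the authors' deposited table (adjusted p by DESeq2 = 0.226), and H2-DMa -0.20 ± 0.133. In spleen, Ciita, the regulator of class II genes, had -0.15 ± 0.102 and Ifi30 0.09 ± 0.0773 in the authors' deposited table.

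Of 12 dendritic cell markers, 10 were above 0 in bone marrow (median 0.11), and Flt3, a cytokine receptor gene also used by progenitors, was the 1 call at 0.72 ± 0.153 by the authors' deposited table (adjusted p by DESeq2 = 0.00177). In spleen 4 of the 12 were above 0 (median -0.11), with 0 called. B cell markers had medians of 0.04 in bone marrow and 0.01 in spleen, and T cell markers -0.05 and 0.07, with 0 called among 9 listed in each. Fcer2a, a receptor of follicular B cells, had -0.21 ± 0.0893 in spleen in the authors' deposited table, and Cd3g, of the T cell receptor complex, 0.37 ± 0.150, at unadjusted p of 0.0168 and 0.0141 by DESeq2. Trac had 0.29 ± 0.135 and Pax5 0.09 ± 0.0979 in spleen by the authors' deposited table. In bone marrow, Cr2 had -0.20 ± 0.166, Cd8a -0.39 ± 0.422 and Cd4 0.37 ± 0.469 in the authors' deposited table.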
